A study of Mus musculus with 4 samples.

Results

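The genes that carry glucose into a cell, break it down and move lactate across the membrane were followed in single cells of mouse hindlimb muscle. They were chosen by symbol, as 10 of the 32285 genes in the deposited matrices: the glucose transporters Slc2a1 and Slc2a3, the hexokinases Hk1 and Hk2, the glycolytic genes Pfkfb3 and Pgk1, the lactate dehydrogenases Ldha and Ldhb, and the monocarboxylate transporters Slc16a1 and Slc16a3. Cells came from the tibialis anterior and gastrocnemius of 2-month-old male S100GFPtg mice (WT) and S100GFPtg Sod1-/- mice (Sod1KO), all carrying GFP under control of the S100B promoter, which is active in Schwann cells but not only there. Propidium iodide-negative cells with and without GFP (GFP+ and GFP-) were sorted from 4 pooled mice per genotype, and each sort gave 1 droplet library of 3′ transcript tags, so there were 4 libraries and 1 library per group. No test across animals was therefore possible, and a difference between libraries could not be told apart from a difference between pools or preparations.

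Glucose enters cells of nerve and muscle down its gradient through transporters of the SLC2A family, GLUT1 (Slc2a1) being the usual one of barrier tissues such as the perineurium. Hexokinase traps it by phosphorylation, PFKFB3 makes the fructose bisphosphate that activates phosphofructokinase, and phosphoglycerate kinase makes ATP further down the pathway. Lactate dehydrogenase interconverts pyruvate and lactate, its A subunit being linked to lactate formation and its B subunit to lactate use, and the transporters MCT1 (Slc16a1) and MCT4 (Slc16a3) carry lactate across membranes. Schwann cells, the glia of peripheral nerve, are known to use glycolysis and to pass lactate to axons through MCT1.

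Cells were grouped into classes by clustering without these genes and naming clusters from marker lists: mSC-like (myelinating Schwann cell), nmSC-like (nonmyelinating Schwann cell), perineurial-like, endothelial-like and others. One cluster held both myelin and perineurial markers and is called the mixed class. The filters left 4557 GFP+ cells in WT and 5925 in Sod1KO, and 1638 and 5143 GFP- cells. Clusters that could not be named held 8.93% and 8.2% of the GFP+ cells and 57.33% and 30.04% of the GFP- cells. The libraries held between 21959719 and 105954116 UMIs (unique molecular identifiers, each counting 1 captured transcript), and the WT GFP- library was the shallowest. Of all barcodes, 42 occurred in more than 1 library. Sod1 itself was at 91.1 and 98.2 CPM in WT and Sod1KO GFP+ cells and at 122 and 113 CPM in GFP- cells. Which part of the gene was deleted is not stated in the sources used, so its 3′ tags say nothing for or against the labelled genotype. Levels below are UMIs of a gene per 1000000 UMIs of the class (CPM), with exact 95% Poisson intervals. Ratios are log2 of the library labelled Sod1KO over that labelled WT with exact conditional binomial intervals. All intervals cover counting error only, and levels are compared between classes for 1 gene, not between genes.

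Promoters are shown for Slc2a1 and Slc16a1, which were both highest in perineurial-like cells of the 3 libraries with at least 20 of them, and for the lactate dehydrogenases, whose levels ran in opposite order in Schwann and endothelial-like cells. Each is the 250 bases before a start on build GRCm38.p6 (mm10), 5′ to 3′ on the strand of the gene, taken from RefSeq, with capitals marking ACGTG or its reverse complement CACGT, the core searched on both strands.
Slc2a1 (chr4:119108495-119108744, + strand): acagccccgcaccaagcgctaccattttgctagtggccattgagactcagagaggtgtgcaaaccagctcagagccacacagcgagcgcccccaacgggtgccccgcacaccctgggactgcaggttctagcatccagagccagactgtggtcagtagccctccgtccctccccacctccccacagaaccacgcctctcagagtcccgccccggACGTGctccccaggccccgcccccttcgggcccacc
Slc16a1 (chr3:104638414-104638663, + strand): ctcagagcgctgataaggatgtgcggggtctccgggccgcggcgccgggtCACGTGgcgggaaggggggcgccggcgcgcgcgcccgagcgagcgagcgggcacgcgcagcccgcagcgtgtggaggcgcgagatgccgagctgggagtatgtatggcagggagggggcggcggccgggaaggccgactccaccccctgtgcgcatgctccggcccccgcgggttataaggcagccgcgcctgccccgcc
Ldha (chr7:46845554-46845803, + strand): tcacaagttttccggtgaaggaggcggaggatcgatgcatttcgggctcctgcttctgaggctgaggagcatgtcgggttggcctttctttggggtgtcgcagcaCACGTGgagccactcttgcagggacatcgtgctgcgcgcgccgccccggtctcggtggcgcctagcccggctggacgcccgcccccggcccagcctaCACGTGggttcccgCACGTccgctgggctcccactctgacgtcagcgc
Ldhb (chr6:142507958-142508207, - strand): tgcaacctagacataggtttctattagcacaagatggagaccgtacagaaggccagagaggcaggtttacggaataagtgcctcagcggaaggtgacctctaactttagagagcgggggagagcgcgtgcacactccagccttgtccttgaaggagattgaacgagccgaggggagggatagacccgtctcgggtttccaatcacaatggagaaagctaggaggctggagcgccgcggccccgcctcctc
RefSeq promoters were matched for 9 of the 10 genes and not for Slc2a3. The core stood in 8 of their 12 promoters, belonging to 7 genes, against 16.572% of all 32851 promoters. RefSeq gave 2 promoters for Ldha. The one printed held 5 matches, counting both strands of its 2 copies of the palindrome CACGTG, which 6.021% of all promoters held, and the other (chr7:46846832-46847081) held 0. Slc16a1 had 1 such palindrome 200 bases before the start, Slc2a1 had 1 core match 36 bases before it, and in the Ldhb window the letters did not occur. Median GC content was 64.6% over the promoters of these genes and 52.4% over all promoters.

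**Figure D1:**
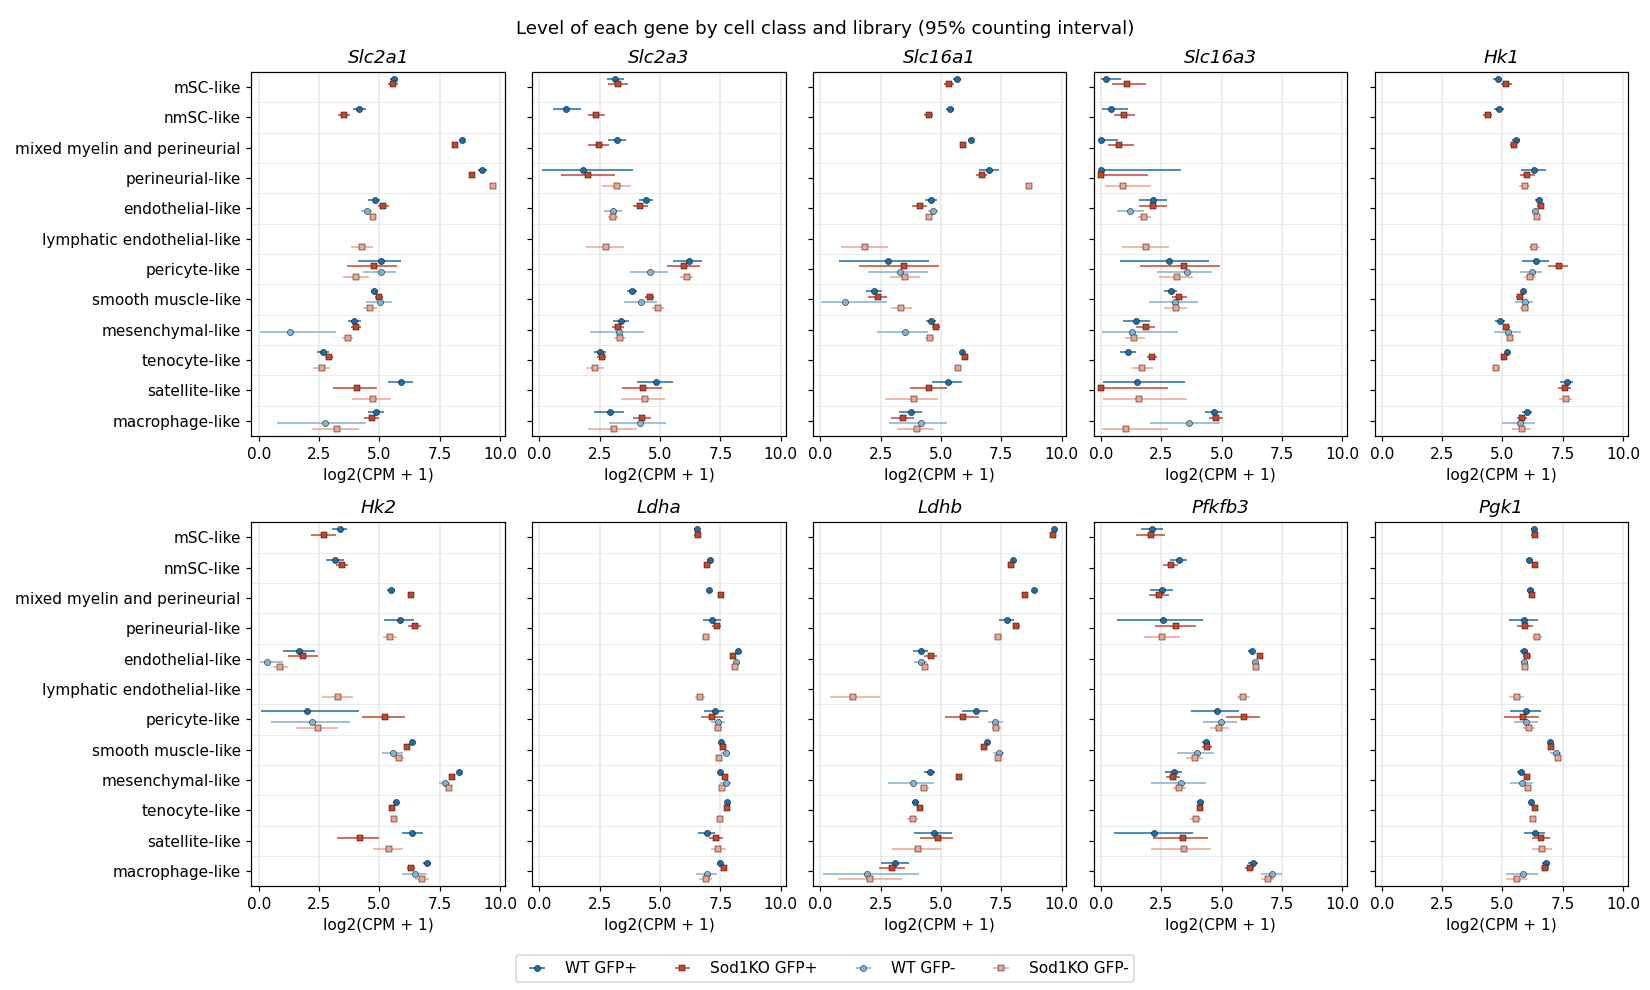
Level of each of the 10 genes by cell class (rows) and library (colours and symbols) on a log2(CPM + 1) axis. Points are summed UMIs of the class in 1 library and bars are exact 95% Poisson intervals, for classes with at least 20 cells. Slc2a1 reached 828 CPM in perineurial-like cells of Sod1KO GFP-, and Ldhb reached 831 CPM in mSC-like cells of WT GFP+.

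Slc2a1 (chr4:119108745-119137330) marked the perineurial-like cells. Its level there was 614 CPM (540 to 695, 250 UMIs in 42 cells) in WT GFP+, 454 CPM (419 to 493) in Sod1KO GFP+ and 828 CPM (791 to 866) in Sod1KO GFP-. The mixed class came next, at 342 and 279 CPM in the GFP+ libraries, and mSC-like cells were at 48.0 and 46.5 CPM. All other classes of the GFP+ libraries lay below 60 CPM, with tenocyte-like cells lowest at 5.36 and 6.50 CPM. In Sod1KO GFP-, which held no mixed class of at least 20 cells, the perineurial-like level was 32.4-fold that of the endothelial-like cells, the next class. Perineurial-like cells were at hand in small numbers, 42, 91 and 110 in these libraries and 5 in WT GFP-. Those 5 cells held 224 UMIs of Slc2a1, which was 36.7% of all Slc2a1 UMIs in that library, while they held 0.732% of its UMIs over all genes.

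The same pattern was seen cell by cell. With every cell thinned to 1000 UMIs, 13 of 42 perineurial-like cells of WT GFP+ had a Slc2a1 UMI (31.0%), as did 28 of 91 in Sod1KO GFP+ and 52 of 110 in Sod1KO GFP- (47.3%). Tenocyte-like cells, the class with the lowest level, gave 4 of 602 in WT GFP+ (0.664%). Without thinning the shares were 95.2% of perineurial-like cells at a median of 9283.5 UMIs and 12.8% of tenocyte-like cells at a median of 29336 UMIs.

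The perineurial-like level in Sod1KO GFP+ was lower than in WT GFP+ by a log2 ratio of −0.43 (−0.65 to −0.21), and in the mixed class by −0.29 (−0.38 to −0.20). In mSC-like cells the ratio was −0.05 (−0.30 to 0.21), an interval that holds no difference. Within Sod1KO, however, the perineurial-like cells of the GFP- sort lay above those of the GFP+ sort by a log2 ratio of 0.86 (0.73 to 1.00). The spread between sorts of 1 genotype was thus wider than the difference between genotypes.

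Slc16a1 (chr3:104638664-104658462), which codes for MCT1, had its highest level in the same class, at 128 CPM (95.3 to 167) in WT GFP+, 102.1 CPM (85.5 to 121) in Sod1KO GFP+ and 405 CPM (379 to 432) in Sod1KO GFP-. The last value lay outside the intervals of the other libraries, and the log2 ratio of GFP- over GFP+ cells within Sod1KO was 1.99 (1.72 to 2.26). The genotype ratio in the GFP+ sort was −0.32 (−0.80 to 0.17). The mixed class was at 75.5 and 59.3 CPM, tenocyte-like cells at 57.9 and 63.7 CPM, mSC-like cells at 49.8 and 39.2 CPM and nmSC-like cells at 40.5 and 21.5 CPM. In Sod1KO GFP+ the intervals of the mixed class and the tenocyte-like cells overlapped. Smooth muscle-like cells were lowest in the GFP+ libraries, at 3.64 and 4.26 CPM. By number of transcripts, tenocyte-like cells held the largest share of Slc16a1 among the classes of the GFP+ libraries, 41.8% in WT and 56.2% in Sod1KO, beside 26.8% and 34.6% of all UMIs.

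**Figure D2:**
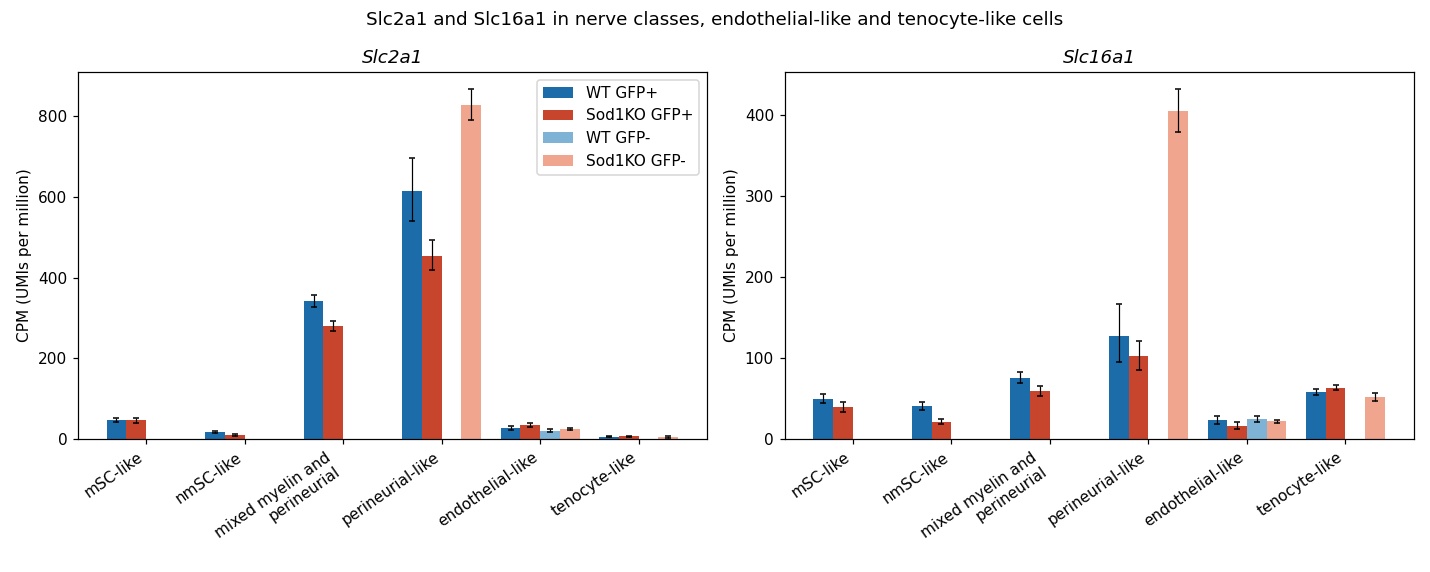
Slc2a1 (left) and Slc16a1 (right) in the nerve classes, endothelial-like and tenocyte-like cells, as bars in CPM coloured by library, with exact 95% Poisson intervals. Both genes are highest in perineurial-like cells of Sod1KO GFP-, at 828 and 405 CPM.

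Of the other members, Hk2, Ldhb and Ldha separated the sorts of the perineurial-like cells in the opposite direction. Pgk1 went the same way as Slc2a1 and Slc16a1. Within Sod1KO, GFP- cells were lower than GFP+ cells for Hk2 (42.5 against 87.5 CPM, log2 −1.04, −1.45 to −0.64) and for Ldhb (164 against 279 CPM, log2 −0.77, −0.98 to −0.55). Ldha was lower by a log2 ratio of −0.45 (−0.72 to −0.18), and Pgk1 was higher by 0.50 (0.12 to 0.90). The summed level of 11 perineurial markers was 5233 CPM in the GFP+ cells and 5388 CPM in the GFP- cells. Myelin markers were at 486 and 273 CPM, macrophage markers at 76.8 and 7.01 CPM, and median depth was 12623 and 18609.5 UMIs per cell. The part of these in the differences was not tested.

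Between genotypes in the GFP+ sort, 7 of the 10 genes reached 50 UMIs over both libraries in perineurial-like cells, and 1 was at least 1.5-fold higher in Sod1KO and 0 were lower. Over the 5351 genes of the same depth, 11.3% were higher and 10.9% lower by that fold. The member past the fold was Hk2, at 56.5 CPM (23 UMIs) in WT and 87.5 CPM (114 UMIs) in Sod1KO, with a log2 ratio of 0.63 whose interval of −0.02 to 1.35 included 0. Ldhb was at 214 and 279 CPM, a ratio of 0.39 (0.05 to 0.74).

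Slc2a3 (chr6:122727809-122802363) codes for GLUT3, a transporter with high affinity for glucose. It was highest in pericyte-like cells, at 71.5 CPM (24 UMIs), 63.1 CPM (19 UMIs), 23.2 CPM (13 UMIs) and 67.3 CPM (121 UMIs) in WT GFP+, Sod1KO GFP+, WT GFP- and Sod1KO GFP-. The WT GFP- value was lower than the others, and the genotype ratio in the GFP- sort was 1.54 (0.71 to 2.49), while in the GFP+ sort it was −0.18 (−1.13 to 0.75). Among endothelial-like cells it was concentrated in those with venous markers, at 46.5 and 30.3 CPM in the GFP+ libraries and 23.5 CPM in Sod1KO GFP-. Capillary endothelial-like cells were at 2.30, 4.09, 4.96 and 4.69 CPM in the same order of libraries as the pericyte-like cells. Slc2a3 in all endothelial-like cells was lower in the GFP- than in the GFP+ sort in both genotypes, at 7.29 against 20.6 CPM in WT and at 7.27 against 17.1 CPM in Sod1KO (log2 −1.24, −1.63 to −0.83). The venous cells numbered 84 of 305 and 115 of 306 in the GFP+ libraries and 196 of 1598 in Sod1KO GFP-, and the part of this difference in makeup was not tested.

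The hexokinases differed in where they were expressed. Hk1 (chr10:62268855-62379920), the widely expressed form, was highest in satellite-like cells, the stem cells of muscle, at 204, 191 and 196 CPM in WT GFP+, Sod1KO GFP+ and Sod1KO GFP-. The 3 values lay within one another's intervals. In Sod1KO GFP+ the pericyte-like cells, at 160 CPM, overlapped the satellite-like cells, and in the other libraries no class did. Endothelial-like cells were at 89.2, 95.2, 80.6 and 85.4 CPM, and the Schwann classes were among the lowest, with mSC-like cells at 26.8 and 34.7 CPM and nmSC-like cells at 27.9 and 19.9 CPM.

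Hk2 (chr6:82725025-82774454), the inducible form of insulin-sensitive tissue, was highest in mesenchymal-like cells of every library, at 315, 256, 207 and 239 CPM in WT GFP+, Sod1KO GFP+, WT GFP- and Sod1KO GFP-. These cells held 43.4%, 47.9%, 35.8% and 73.1% of the Hk2 transcripts of their libraries. Macrophage-like cells followed in WT GFP+ at 125 CPM, and in Sod1KO GFP+ they were at 78.5 CPM, next to the perineurial-like 87.5 CPM. By single cluster the order differed in Sod1KO GFP+. There a tenocyte-like cluster of 40 cells led by Bmpr1b was at 672 CPM, above a mesenchymal-like cluster led by Pi16 at 344 CPM. In Sod1KO GFP- these clusters were at 261 and 423 CPM in the same order. In endothelial-like cells Hk2 was at 2.16, 2.57, 0.286 and 0.845 CPM, resting on 10, 12, 2 and 20 UMIs. As a share of the UMIs of both hexokinases, Hk2 accounted for 91.6% and 88.0% in mesenchymal-like, 58.4% in each for tenocyte-like and 2.37% and 2.63% in endothelial-like cells of the GFP+ libraries. The thinned share of mesenchymal-like cells with a Hk2 UMI was 24.4% in WT GFP+ and 18.6% in Sod1KO GFP-, against 0.328% and 0.188% of endothelial-like cells. Unthinned, it was 60.3% and 57.8% at medians of 8132 and 13829 UMIs, against 1.31% and 1.00% at medians of 11393 and 12351.5 UMIs.

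**Figure D3:**
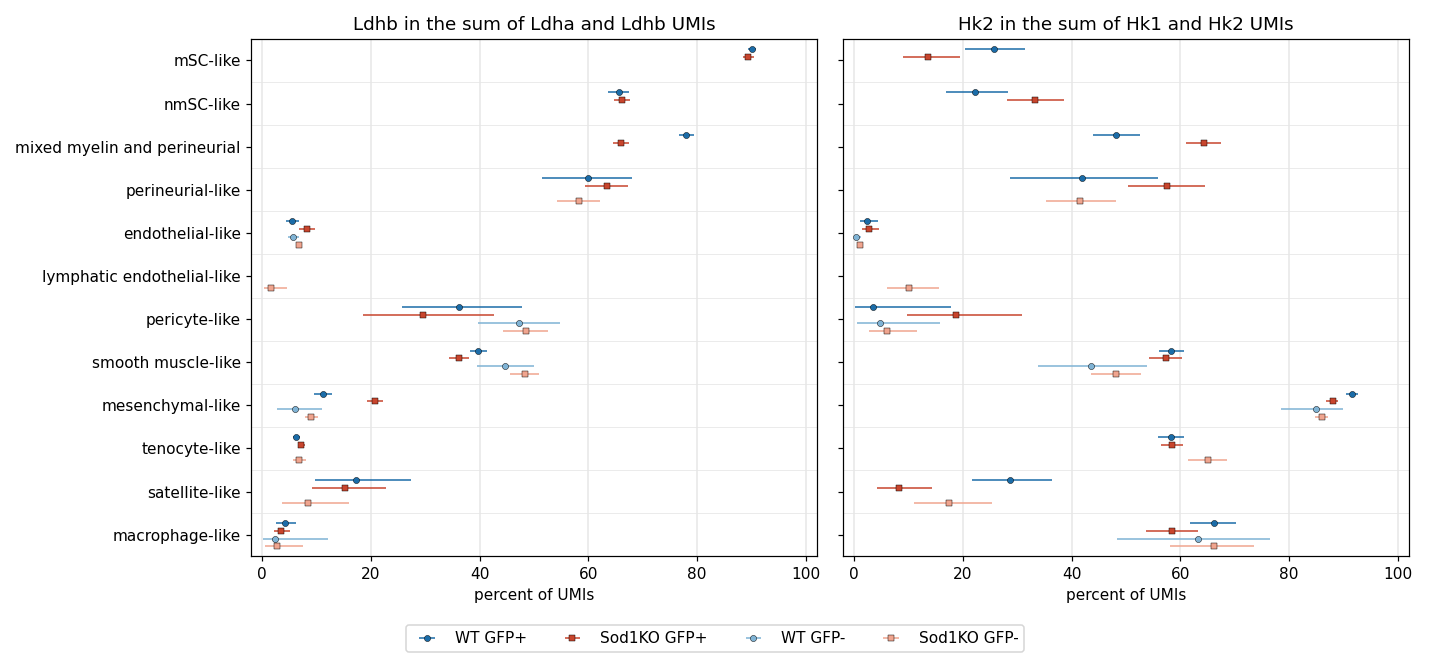
Share of Ldhb in the UMIs of Ldha and Ldhb (left) and of Hk2 in the UMIs of Hk1 and Hk2 (right), in percent with exact 95% binomial intervals, by class (rows) and library (symbols). Ldhb makes up 90.1% and 89.5% in mSC-like cells and 5.40% and 8.13% in endothelial-like cells of the GFP+ libraries.

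Pfkfb3 (chr2:11471430-11554071) had its highest levels in macrophage-like and endothelial-like cells. Macrophage-like cells were at 78.0, 70.9, 134 and 120 CPM and endothelial-like cells at 74.9, 95.2, 81.6 and 85.3 CPM in WT GFP+, Sod1KO GFP+, WT GFP- and Sod1KO GFP-. In WT GFP+ these neighbours did not differ beyond counting error (log2 0.06, −0.20 to 0.31), and endothelial-like cells led there with the stricter cell filter. Schwann cells had little of it, with 3.37 and 3.17 CPM in mSC-like and 8.27 and 6.37 CPM in nmSC-like cells. Within the endothelium of the GFP- libraries, arterial endothelial-like cells were at 114 and 122 CPM and capillary ones at 73.0 and 74.1 CPM.

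Pgk1 (chrX:106187100-106203699) was found in all classes. Smooth muscle-like cells were highest at 125, 127, 147 and 156 CPM in WT GFP+, Sod1KO GFP+, WT GFP- and Sod1KO GFP-. In WT GFP+ their lead over macrophage-like cells was within counting error (log2 0.17, −0.01 to 0.35), and with the stricter cell filter macrophage-like cells led in both GFP+ libraries and satellite-like cells in Sod1KO GFP-. The lowest class was at 53.3, 56.5, 54.4 and 47.1 CPM in the same libraries. Both Pgk1 and Ldha have near-identical processed copies in the genome, so reads shared with them could have been split or lost in counting.

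Ldhb (chr6:142490249-142507957) was highest in mSC-like cells of the GFP+ libraries. It was at 831 CPM (810 to 853, 5924 UMIs) in WT and 790 CPM (764 to 817, 3487 UMIs) in Sod1KO, followed by the mixed class at 463 and 359 CPM. The nmSC-like cells were at 251 and 240 CPM and the perineurial-like cells at 214 and 279 CPM. In Sod1KO GFP+ the perineurial-like cells thus lay above the nmSC-like cells. In both GFP+ libraries the interval of the mSC-like cells lay above that of every other class. Macrophage-like cells were lowest, at 7.64 and 6.96 CPM. In Sod1KO GFP-, where Schwann cells were too few, perineurial-like, smooth muscle-like and pericyte-like cells, at 164, 162 and 157 CPM, did not differ beyond their intervals. The mSC-like cells held 46.3% of the Ldhb transcripts of WT GFP+ and 29.4% of those of Sod1KO GFP+, and made up 23.7% and 11.1% of the cells. Thinned to 1000 UMIs, 597 of 1078 mSC-like cells of WT GFP+ had a Ldhb UMI (55.4%), against 3 of 305 endothelial-like cells (0.984%), and unthinned shares were 96.8% at a median of 6238 UMIs and 15.7% at a median of 11393 UMIs.

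Ldha (chr7:46842274-46855627) was highest in endothelial-like cells of all 4 libraries, at 299, 261, 281 and 271 CPM, and lowest among the GFP+ classes in mSC-like cells, at 91.1 and 93.1 CPM. Tenocyte-like cells came second in the GFP+ libraries at 216 CPM in each. The Ldhb share of the lactate dehydrogenase UMIs therefore ran from 90.1% (89.4 to 90.8) in mSC-like cells of WT GFP+ through 65.6% in nmSC-like, 60.0% in perineurial-like and 39.8% in smooth muscle-like cells to 6.25% in tenocyte-like, 5.40% in endothelial-like and 4.09% in macrophage-like cells. The order of these classes was the same in Sod1KO GFP+, at 89.5%, 66.2%, 63.4%, 36.1%, 7.15%, 8.13% and 3.41%, except that endothelial-like lay above tenocyte-like cells. Over 36 sums of a class in a library the Pearson correlation of Ldha with Ldhb on the log2(CPM + 1) scale was −0.30, given as a description, since points share libraries and cell classes.

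Slc16a3 (chr11:120948484-120959000), which codes for MCT4, the lactate exporter of glycolytic cells, was sparse. Macrophage-like cells were at 24.5 CPM (64 UMIs) and 26.3 CPM (83 UMIs) in the GFP+ libraries, and smooth muscle-like cells at 6.40 and 8.51 CPM. The GFP- macrophage-like cells gave 4 UMIs and 1 UMI, and in Sod1KO GFP- the pericyte-like (7.79 CPM) and smooth muscle-like cells (7.59 CPM) were highest. mSC-like cells had 1 UMI in WT GFP+ and 5 in Sod1KO GFP+, and perineurial-like cells of the GFP+ libraries had 0, with exact upper bounds of 9.06 CPM in WT and 2.83 CPM in Sod1KO.

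In mSC-like cells (1079 and 658 cells of the GFP+ libraries), the genotypes differed little. Of 8 members with at least 50 UMIs, 0 were at least 1.5-fold higher and 1 was lower in Sod1KO, against 3.8% and 4.36% of the 10329 genes of that depth, and the median log2 ratio was −0.01 over the members with a ratio and −0.03 over all these genes. Hk2 was the member past the fold, at 9.26 CPM (66 UMIs) and 5.44 CPM (24 UMIs), a ratio of −0.77 (−1.51 to −0.07). Hk2 in this class was below the fold at −0.46 with a stricter cell filter and at −0.52 with cells classed by their highest marker score. Slc16a1 was at 49.8 and 39.2 CPM (−0.35, −0.62 to −0.08) and Hk1 at 26.8 and 34.7 CPM (0.37, 0.06 to 0.69). Ldhb differed by −0.07 (−0.13 to −0.01), and Ldha, Pgk1 and Slc2a1 by 0.03, 0.03 and −0.05.

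In nmSC-like cells (385 and 889 cells), 1 of 9 members was at least 1.5-fold higher and 2 were lower in Sod1KO, against 9.62% and 13.2% of 11819 genes. Slc16a1 was at 40.5 CPM (250 UMIs) in WT and 21.5 CPM (236 UMIs) in Sod1KO, a log2 ratio of −0.92 (−1.18 to −0.65). Slc2a1 was at 17.0 and 10.7 CPM, a ratio of −0.66 (−1.06 to −0.27), and Slc2a3 at 1.14 CPM (7 UMIs) and 4.10 CPM (45 UMIs), a ratio of 1.85 (0.69 to 3.25). Hk1 was lower by −0.48 (−0.78 to −0.19), Pgk1 was higher by 0.26 (0.09 to 0.43), and Ldha and Ldhb differed by −0.10 and −0.06.

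The libraries drew their nmSC-like cells from different clusters, and the ratios changed with them. A cluster led by Bche, Ajap1 and Col20a1 held 312 of the WT and 213 of the Sod1KO cells, while a cluster led by Btc, Rxrg and Ngfr held 61 and 588. The remaining 12 and 88 cells lay in a cluster led by Cfap299, Adgrl3 and Epha5. It was shallow, with a median of 4687.5 UMIs in Sod1KO against 9542 in the whole class. In the Bche-led cluster Slc16a1 was lower in Sod1KO by −0.61 (−0.99 to −0.24), while Slc2a1 differed by −0.14 (−0.71 to 0.40) and Slc2a3 by 0.55 on 5 and 4 UMIs. There 0 of 8 members were higher and 1 was lower by the fold, against 2.95% and 6.72% of 10296 genes. In the Btc-led cluster 0 of 8 were higher and 4 lower, against 16.5% and 14.3% of 9904 genes, with Slc2a1 at −2.03 (−2.82 to −1.16), Pfkfb3 at −1.46 (−2.56 to −0.16), Slc16a1 at −0.92 (−1.63 to −0.12) and Hk2 at −0.79 (−1.85 to 0.48). The WT cells of this cluster carried more myelin marker UMIs than the Sod1KO cells, 5474 against 2100 CPM, and more perineurial marker UMIs, 442 against 153 CPM. Immediate early genes, which respond to tissue dissociation, were at 22846 against 10226 CPM, with 12 of 15 lower by the fold. In the Bche-led cluster erythroid markers were at 14.0 CPM in WT and 4896 CPM in Sod1KO and endothelial markers at 429 and 205 CPM, and in the whole class at 15.9 and 1581 CPM and at 395 and 87.1 CPM. The part of these markers in the ratios was not tested. With each cell classed by its highest marker score, the Slc2a1 ratio of nmSC-like cells turned to 0.22, while Slc16a1 stayed past the fold under all 12 other settings, from −1.07 to −0.61.

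**Figure D4:**
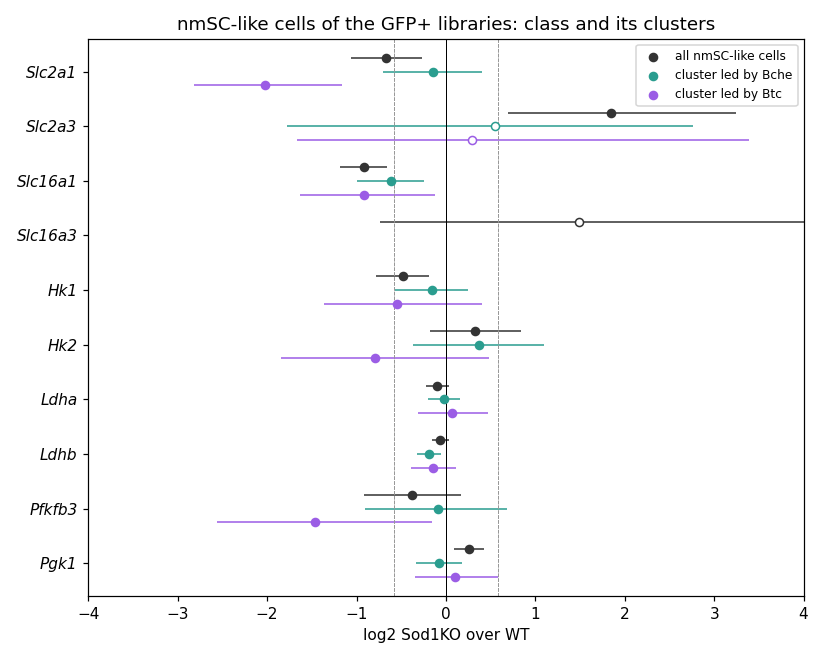
Log2 ratio of Sod1KO over WT for each gene in all nmSC-like cells of the GFP+ libraries and in the clusters led by Bche and by Btc, with exact 95% intervals. Open symbols rest on fewer than 50 UMIs and dashed lines mark 1.5-fold. Slc16a1 lies below −0.6 in the class and in both clusters, while Slc2a1 lies at −0.14 in one cluster and −2.03 in the other.

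The mixed class (304 and 310 cells) had 1 of 9 members higher and 1 lower, against 9.76% and 7.37% of 11400 genes. Hk2 was at 43.7 CPM (259 UMIs) in WT and 77.9 CPM (573 UMIs) in Sod1KO, a ratio of 0.83 (0.62 to 1.05), the same direction as in the perineurial-like cells. Slc2a3 was at 8.26 and 4.49 CPM, a ratio of −0.88 (−1.56 to −0.21). Ldha was at 130 and 185 CPM (0.51, 0.38 to 0.63) and Ldhb at 463 and 359 CPM (−0.37, −0.44 to −0.29), so that the Ldhb share went from 78.0% in WT to 66.0% in Sod1KO. Myelin markers moved with it, at 18235 CPM in WT and 9418 CPM in Sod1KO, while perineurial markers were at 3661 and 3093 CPM. The cells of this class were deep, with medians of 18218 and 21355 UMIs against 6238 in mSC-like and 9283.5 in perineurial-like cells of WT GFP+. Clustered without the removal of doublets by score, the class held 343 and 391 cells. In all, that removal took 210 of 4767 and 366 of 6291 cells of the GFP+ libraries. Whether the cells that remained hold pairs of cells was not tested.

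Endothelial-like cells could be compared in both sorts. In the GFP+ libraries (305 and 306 cells) 0 of 8 members passed the fold in either direction, against 5.53% higher and 3.48% lower (9.01% in all) of 10403 genes. Slc2a1 was at 26.8 and 34.9 CPM (0.38, 0.03 to 0.73), Pfkfb3 at 74.9 and 95.2 CPM (0.35, 0.14 to 0.55), Slc16a1 at 23.2 and 16.5 CPM (−0.49, −0.93 to −0.06) and Ldha at 299 and 261 CPM (−0.20, −0.31 to −0.09). In the GFP- libraries (492 and 1598 cells) the corresponding ratios were 0.26 (0.00 to 0.53), 0.06 (−0.07 to 0.20), −0.16 (−0.41 to 0.10) and −0.05 (−0.12 to 0.03). There 1 of 9 members was higher and 0 were lower, against 10.9% and 5.39% of 12656 genes. That member was Slc16a3, on 9 and 58 UMIs, with a ratio of 0.93 (−0.09 to 2.13). Globin and other erythroid marker UMIs were higher in endothelial-like cells of Sod1KO than of WT, at 12398 against 2509 CPM in GFP+ and 7480 against 2921 CPM in GFP-, and their part in these ratios was not tested.

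Subsets of the endothelium held members past the fold that the whole class did not. Ldhb in capillary endothelial-like cells was at 9.76 CPM (17 UMIs) in WT and 26.3 CPM (45 UMIs) in Sod1KO of the GFP+ sort, a ratio of 1.43 (0.60 to 2.33), and at 9.12 CPM (46 UMIs) and 13.9 CPM (220 UMIs) in the GFP- sort, a ratio of 0.61 (0.15 to 1.10). It was 1 of 7 members higher and 0 lower in GFP+, against 5.58% and 6.27% of genes, and 1 of 8 and 0 in GFP-, against 9.71% and 5.91%. The erythroid markers in the capillary cells of the GFP+ sort stood at 2187 CPM in WT and 27540 CPM in Sod1KO and the myelin markers at 146 and 367 CPM, while in the GFP- sort myelin markers were at 165 and 75.7 CPM. The part of either in the ratios was not tested. In venous endothelial-like cells of the GFP+ sort 0 of 8 members were higher and 2 lower, against 6.16% and 4.33%, namely Slc16a1 at 29.1 and 15.4 CPM (−0.92, −1.57 to −0.29) and Slc2a3 at 46.5 and 30.3 CPM (−0.62, −1.09 to −0.15). Arterial endothelial-like cells had 0 of 4 members past the fold in GFP+, against 7.95% higher and 6.77% lower, and 0 of 6 in GFP-, against 7.92% and 8.29%.

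**Figure D5:**
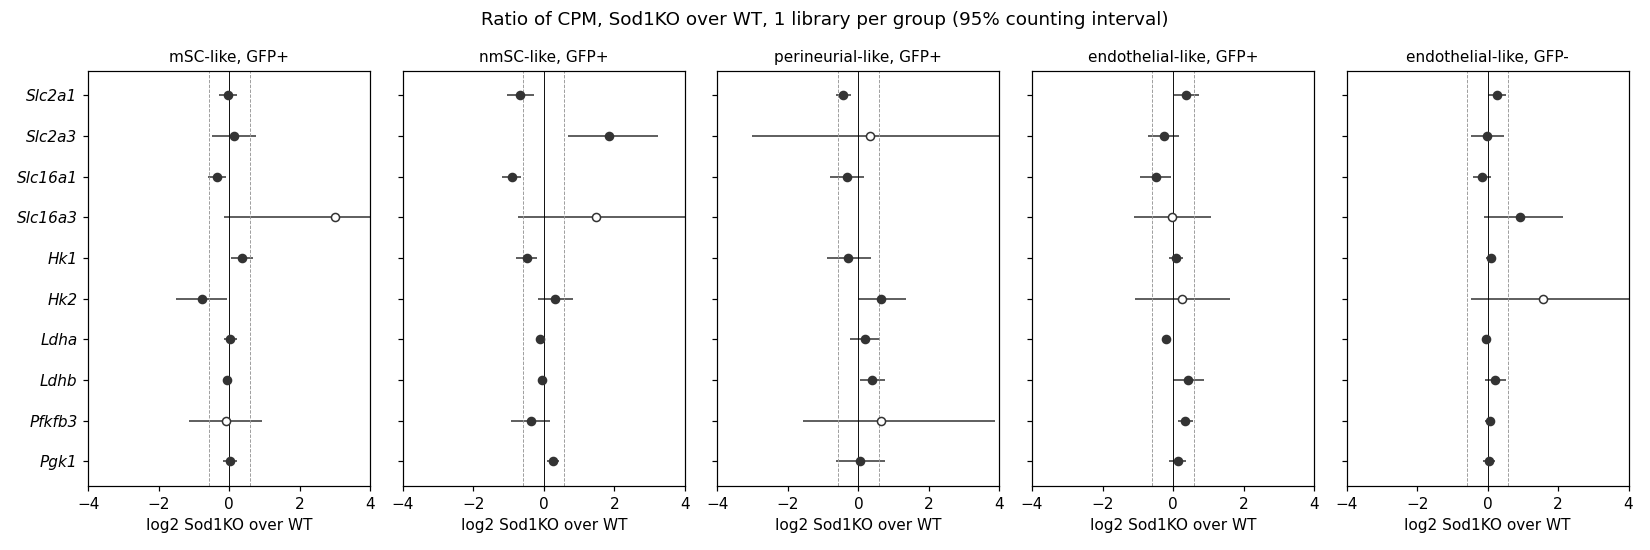
Log2 ratio of Sod1KO over WT for the 10 genes, with exact 95% intervals. Shown are mSC-like, nmSC-like and perineurial-like cells of the GFP+ sort and endothelial-like cells of both sorts. Open symbols rest on fewer than 50 UMIs, dashed lines mark 1.5-fold and the axis is cut at 4 on either side. In mSC-like cells only Hk2 lies past the fold with at least 50 UMIs, at −0.77.

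Among the remaining classes few members lay past the fold. Slc2a3 was higher in Sod1KO in smooth muscle-like cells of both sorts, at 13.4 and 22.7 CPM in GFP+ (0.76, 0.46 to 1.06) and at 17.7 and 29.4 CPM in GFP- (0.73, −0.01 to 1.56). It was 1 of 10 members higher and 0 lower in GFP+, against 7.28% and 2.66% (9.93% in all) of genes, and 1 of 8 and 0 in GFP-, against 8.74% and 8.42%. The GFP+ ratio was 0.46 without the 5 cells that held most of its UMIs in each library, and 0.29 with the stricter cell filter. The GFP- ratio was 0.52 with cells classed by their highest marker score and 0.47 (−0.28 to 1.30) in the cluster that held 37 of the 40 WT and 189 of the 205 Sod1KO cells. In pericyte-like cells, the other mural class, the Slc2a3 ratio of 1.54 in the GFP- sort was 1 of 6 members higher and 0 lower, against 9.29% and 9.65%. In the GFP+ sort 1 of 2 pericyte-like members was higher, against 10.6%, and 0 were lower, against 12.3%. That was Hk1, at 83.4 CPM (28 UMIs) and 160 CPM (48 UMIs), a ratio of 0.94 (0.23 to 1.66) that was 0.20 with the stricter cell filter and −0.03 with cells classed by their highest marker score.

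Macrophage-like cells of the GFP+ libraries had Slc2a3 at 6.50 CPM (17 UMIs) and 18.0 CPM (57 UMIs), a ratio of 1.47 (0.67 to 2.35), and Hk2 at 125 and 78.5 CPM, a ratio of −0.67 (−0.91 to −0.42). These were 1 of 9 members higher and 1 lower, against 6.38% and 5.46% of genes. Erythroid markers in these cells were at 12.6 CPM in WT and 6219 CPM in Sod1KO, and their part was not tested. In the GFP- sort 0 of 5 members were past the fold, against 8.15% higher and 14.3% lower.

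Tenocyte-like cells had Slc16a3 at 1.15 CPM (22 UMIs) and 3.35 CPM (104 UMIs), a ratio of 1.55 (0.87 to 2.28). It was 1 of 10 members higher and 0 lower, against 5.3% and 2.53% (7.84% in all) of genes. Ldha in these cells was at 216 CPM in both libraries, a ratio of 0.00 (−0.06 to 0.06). In satellite-like cells of the GFP+ sort 0 of 4 members were higher and 1 was lower, against 7.15% and 11% (18.1% in all). That was Hk2, at 81.9 CPM (45 UMIs) and 17.2 CPM (11 UMIs), and 1 cell held 71.1% of the WT UMIs.

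Mesenchymal-like cells of the GFP+ sort had Ldhb at 22.2 CPM (154 UMIs) in WT and 52.9 CPM (608 UMIs) in Sod1KO, a ratio of 1.25 (0.99 to 1.51), as 1 of 9 members higher and 0 lower, against 6.86% and 3.96% of genes. Of these Ldhb UMIs, 80 in WT and 452 in Sod1KO lay in 1 of the mesenchymal-like clusters, led by Cxcl14, Smim41 and Trf, with 80 and 315 cells. Within that cluster Ldhb was at 62.4 and 124 CPM, a ratio of 0.98 (0.64 to 1.35). Perineurial markers were at 173 and 332 CPM in the whole class and at 334 and 814 CPM in that cluster, and their part was not tested. In the GFP- sort 2 of 9 members were higher and 0 lower, against 17.3% and 10.3%. These were Slc2a1, on 1 UMI in 41 WT cells and 140 UMIs in 854 Sod1KO cells, and Slc16a1, on 7 and 261 UMIs.

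The rest of the pathway, from a list of 60 genes that includes the 10, also differed little in myelinating cells. Among the 50 other genes, mSC-like cells had 29 with at least 50 UMIs, of which 1 was higher (3.45%) and 0 lower, against the 3.8% and 4.36% of all genes. The highest ratio was that of Pdk3, a kinase that inhibits pyruvate dehydrogenase, at 21.5 and 33.8 CPM (0.65, 0.32 to 0.99), and the lowest that of its opponent Pdp1, at 10.9 and 7.93 CPM (−0.46). In nmSC-like cells 3 of 36 were higher (8.33%) and 6 lower (16.7%), near the 9.62% and 13.2% of all genes. Pfkfb4, a relative of Pfkfb3, was at 12.0 CPM (74 UMIs) and 43.3 CPM (476 UMIs), a ratio of 1.85, and Aldoc, the aldolase of neural tissue, at 13.8 and 2.37 CPM, a ratio of −2.54 (−3.24 to −1.89).

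In the mixed class 1 of 31 other pathway genes was higher and 3 were lower, against 9.76% and 7.37% of all genes. Pfkfb4 was again the highest, at 8.09 and 23.5 CPM (1.54, 1.07 to 2.03), and Pdp2, a phosphatase that activates pyruvate dehydrogenase, the lowest, at 9.61 and 4.35 CPM (−1.14, −1.82 to −0.49). Perineurial-like cells had 2 of 16 higher and 1 lower, against 11.3% and 10.9%, with Pdk3 at 19.6 and 33.8 CPM (0.78, −0.32 to 2.08) and Eno1, an enolase, at 78.6 and 51.4 CPM (−0.61, −1.24 to 0.04), both intervals including 0. Pdk1, which also inhibits pyruvate dehydrogenase, was at 150, 166 and 139 CPM in perineurial-like cells of WT GFP+, Sod1KO GFP+ and Sod1KO GFP-, above its level in every other class.

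In endothelial-like cells of the GFP+ sort 1 of 30 other pathway genes was higher and 0 were lower, against 5.53% and 3.48%, Pdp2 being highest at 4.33 and 8.13 CPM (0.91, 0.09 to 1.77) and Pdk2 lowest at −0.46. In the GFP- sort 5 of 37 were higher (13.5%) and 4 lower (10.8%), against 10.9% and 5.39% of all genes. Slc2a13, which codes for a myo-inositol transporter of the GLUT family, was at 5.86 and 11.8 CPM (1.01, 0.53 to 1.52), and Fbp2, a fructose bisphosphatase, at 3.57 and 1.44 CPM (−1.31, −2.10 to −0.51). Pdk1 was at 20.6 CPM (144 UMIs) and 41.1 CPM (972 UMIs), a ratio of 1.00 (0.74 to 1.26), and Eno1 at 126 and 69.6 CPM, a ratio of −0.86 (−0.98 to −0.74). Eno1 and Pdk1 were picked out after their values were seen, and neither was past the fold in the GFP+ sort.

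A second list, of 23 genes of the hypoxia response other than the pathway genes, had medians below 0 in the Schwann, perineurial-like and endothelial-like classes. In mSC-like cells 0 of 15 were higher and 1 lower by the fold, against 3.8% and 4.36% of all genes of that depth. The median log2 ratio was −0.10, against −0.03 over all these genes. In nmSC-like cells 1 of 17 was higher and 3 lower, against 9.62% and 13.2% (medians −0.10 and −0.03). The mixed class had 2 of 20 and 4, against 9.76% and 7.37% (−0.14 and 0.00). Perineurial-like cells had 0 of 13 and 2, against 11.3% and 10.9% (−0.20 and −0.01). Endothelial-like cells of GFP+ had 0 of 19 and 1, against 5.53% and 3.48%. There the list median of −0.009 lay above the −0.025 of all genes. In GFP- they had 2 of 20 and 1, against 10.9% and 5.39% (−0.14 and −0.03).

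The genes whose level followed a member most closely were found over the 36 class sums of 12 classes among 15242 genes, by Pearson correlation of log2(CPM + 1), and are given as descriptions. Slc2a1 ran with Ocln, which codes for the tight junction protein occludin (0.87), Efnb3 (0.87) and Ptch1 (0.86), and Ldhb with Gamt, which codes for an enzyme of creatine synthesis (0.91), Hdhd2 (0.89) and Plxnb1 (0.89). Pfkfb3 ran with Serinc3 (0.92), Il2rg (0.91) and Smagp (0.91), Hk2 with Gng10 (0.83), Adam33 (0.82) and Fgfr1 (0.80), and Slc16a1 with Cnnm3 (0.81), Folr1 (0.80) and Ntng1 (0.79). The closest genes to Slc2a3 were Gm15179 (0.79), Rgs4 (0.78) and Fam214a (0.77), to Slc16a3 Gdf15 (0.80), Adap2 (0.79) and Adap2os (0.78), to Hk1 Agpat5 (0.81) and Bbx (0.78), to Ldha Mtmr11 (0.78), Tmem255b (0.76) and Gemin7 (0.74), and to Pgk1 Ptges3l (0.80), Cox7b (0.80) and Synpo2l (0.79). Among the members, Pfkfb3 with Slc16a3 (0.61), and at the same value Slc2a1 with Ldhb and Slc2a3 with Slc16a3 (0.58), were the most alike, and Pfkfb3 with Ldhb (−0.66) and Slc16a1 with Slc16a3 (−0.64) the least.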

How the data were processed

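Single cells of 4 libraries had been measured by droplet RNA sequencing of 3′ ends. The deposited values were raw UMI counts per gene and cell in barcodes called as cells, made by the authors with Cell Ranger. Per the file headers and the submitters' processing notes the version was 7.1.0 and the build mm10, with Seurat 4.30 downstream. The authors removed ambient RNA and doublets and integrated batches after this step, so the counts used here hold ambient RNA. Everything else was computed here. Of these steps, the ratio and its interval were tested on simulated counts. These were modelled on mSC-like cells of GFP+ and endothelial-like cells of GFP- and held counting error only. The other steps were not tested in this way. Clustering used leidenalg 0.10.2 with igraph 0.11.9 and scikit-learn 1.9.0, intervals came from scipy 1.17.1, and tables and plots from pandas 2.3.3, numpy 2.4.6 and matplotlib 3.10.9 (Python 3.11.15).

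Barcodes were kept at over 200 detected genes and a mitochondrial share under 10% (4767, 6291, 1665 and 5430 of 5498, 7267, 2052 and 6598 barcodes in WT GFP+, Sod1KO GFP+, WT GFP- and Sod1KO GFP-). The highest scores against simulated doublets were removed at 0.8% per 1000 barcodes (210, 366, 27 and 287 cells). The 60 pathway genes were left out of clustering, which used 2000 variable genes, 30 principal components, 20 neighbours and Leiden resolution 1, without batch integration. A marker counted for a cluster above 20 CPM and 2 times the mean of the other clusters, and a name needed at least 3 markers and at least 40% of the list. A cluster with at least 50% of a second list was left unnamed or, for the myelin and perineurial lists, called mixed. These naming limits were set after the clusters were seen, and no member was a marker. Names rebuilt in this way may differ from those of the study.

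UMIs were summed per class and library with at least 20 cells. In ratios, 3 UMIs stood in for 0, no ratio was given where both counts were at or under 3 or where the floor turned the direction, and a gene was past the fold at 1.5-fold with at least 50 UMIs over both libraries. Shares of cells used cells thinned to 1000 UMIs. Named were the 10 members, the other pathway gene of highest and of lowest ratio in each class, and the 3 genes of most similar level for each member (at least 200 UMIs in all), of which 1 is not reported here. Members and gene lists were chosen with earlier results of these data known. Alternatives covered the cell filter, doublets, scaling, ambient RNA, class definition, count minimum, fold and single cells.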

Additional observations from a re-analysis of the deposited data

Results flagged for a closer look

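Ldha in smooth muscle-like cells lay on opposite sides of 0 in the sorts. It was higher in Sod1KO in the GFP+ libraries by a log2 ratio of 0.10 (0.01 to 0.19) and lower in the GFP- libraries by −0.27 (−0.50 to −0.04), and the difference between the sorts was not tested.

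Some unnamed clusters, which entered no comparison, held a member at a level whose interval lay above that of every named class of their library (subsets of the endothelium apart). Ldha was at 357 CPM in 154 cells of WT GFP- in a cluster led by Cfd, Retn, Hbb-bt and Hbb-bs, whose cells had a median of 1357 UMIs. In the cluster led by Mylpf, Myl1, Tnnc2 and Acta1, 125 cells of Sod1KO GFP- with a median of 1595 UMIs had Ldha at 660 CPM and Slc16a3 at 27.6 CPM, beside 311 CPM and 0 in 59 cells of WT GFP-. Ldha was at 331 CPM in 220 cells of WT GFP- in a cluster led by Dlk1, Fabp4, Timp4 and Gpihbp1. Pfkfb3 was at 323 CPM in 21 cells of WT GFP- and at 251 CPM in 92 cells of Sod1KO GFP- in a cluster led by Dach1, Lnx1, St6galnac3 and Slc1a1.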

How the results depend on the processing

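The median log2 ratios were taken over all members with a ratio, those under 50 UMIs included. They were −0.01 in mSC-like, −0.08 in nmSC-like and 0.18 in perineurial-like cells (0.04 over the 7 with at least 50 UMIs). In endothelial-like cells they were 0.11 in GFP+ and 0.07 in GFP-. Under the alternatives run they stayed between the median lower and the median upper interval bound of the members. Such bounds describe single genes and do not measure the error of a median. The exception was nmSC-like cells, where the Btc-led cluster alone gave −0.54, a setting chosen after seeing the data. Counts of pathway genes past the fold, summed over the 5 Schwann, perineurial and endothelial comparisons, were 15 higher and 14 lower of 189 tested. Over all genes, 3.8% to 11.3% were higher and 3.48% to 13.2% lower in these comparisons. The counts became 28 and 22 of 241 with at least 10 UMIs, and 7 and 6 of 118 with at least 200. With at least 1 UMI they were 33 and 29 of 265, and at 2-fold 3 and 5 of 189. Shares over all genes at these other settings are not given here. Each ratio of a member was counted once per alternative. A change of sign was counted apart only for ratios past the fold in the main setting, and 2 of these changed sign. Of the rest, 1265 kept within their interval and 89 moved, and changes of sign among them were not counted. Of the levels 2091 kept and 379 moved. With each cell classed by its highest marker score, Slc2a1 in nmSC-like cells went from −0.66 to 0.22 and Hk1 in pericyte-like cells of GFP+ from 0.94 to −0.03 (−0.028). For both the cause was not tested. Median-of-ratios scaling shifted the ratios of a class by −0.06 to 0.04, apart from −0.15 in macrophage-like cells of GFP-. At Leiden resolution 0.5 the perineurial-like cells merged with others and gave no value, and leaving out clusters held over 80% by 1 library gave no value for smooth muscle-like and mesenchymal-like cells of GFP-. No paired analysis was possible because each group was 1 library, and no library could be left out. Depth limits Slc16a3 above all, since most classes held fewer than 50 of its UMIs.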

Other observations

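Other genes of the pathway list also had their highest level in few classes. Pgam2, the phosphoglycerate mutase of muscle, was at 95.8, 100, 109 and 112 CPM in smooth muscle-like cells of WT GFP+, Sod1KO GFP+, WT GFP- and Sod1KO GFP-, and at most 5.70 CPM in any other class. Slc2a4, which codes for the insulin-responsive transporter GLUT4, was at 108, 91.0, 133 and 130 CPM in the same cells. Hk3, a hexokinase of myeloid cells, was at 57.3, 48.7, 45.6 and 75.5 CPM in macrophage-like cells, and at most 3.21 CPM elsewhere. In nmSC-like cells Bpgm, which codes for bisphosphoglycerate mutase, was at 138 and 79.8 CPM and Slc2a13 at 117 and 118 CPM in the GFP+ libraries. Pdk4, a kinase that inhibits pyruvate dehydrogenase, was at 167, 90.8 and 188 CPM in satellite-like cells of WT GFP+, Sod1KO GFP+ and Sod1KO GFP-.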
